A study of Rattus norvegicus with 12 samples.

Results

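The 10 genes described here carry tryptophan through the kynurenine pathway to NAD or recycle nicotinamide into it: Ido1, Tdo2, Afmid, Kmo, Kynu, Haao, Acmsd, Qprt, Nampt and Nadsyn1. They were chosen by name, and the rows of 2 deposited expression tables with these gene symbols were taken. All 10 were found among the 32623 entries of the table for sham and UUO rats, and 9 among the 22132 entries of the table for control and adenine rats. Ido1 was not analysed here in the control and adenine groups. Kidney RNA was sequenced from 12 male wild-type SD (Sprague-Dawley) rats, 8 weeks old when bought and carrying no introduced allele, in 4 groups of 3. Over 3 weeks the adenine group was dosed by gavage with adenine (220 mg/kg each day) and the control group with saline. In the UUO group the left ureter was tied (unilateral ureteral obstruction) and the kidney taken after 2 weeks, and the sham group had surgery without the ligation. Both models are used for renal fibrosis, and they differ in cause, in duration and in the table that holds them, so these cannot be told apart in any difference between the models.

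Most cells remake NAD from nicotinamide, and liver and kidney proximal tubule also make it from tryptophan. Ido1 and Tdo2 open the tryptophan ring, Afmid releases kynurenine, and Kmo, Kynu and Haao carry it on to an unstable intermediate. That intermediate closes by itself to quinolinate, the substrate of Qprt, unless Acmsd diverts it to full oxidation. Qprt makes the first nucleotide of this de novo route and Nadsyn1 the last step to NAD, while Nampt is the rate-limiting enzyme of the salvage route from nicotinamide.

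The promoters of the enzyme genes are shown because the members of the middle of the pathway moved together. RefSeq windows of 300 bases (250 before and 50 after the gene's start, build GRCr8) matched 7 of the 10 genes, all but Ido1, Acmsd and Nampt. Matches on both strands are given for 4 motifs. These were GAAANNGAA (core of the interferon-stimulated response element), GCGTG (core bound by the aryl hydrocarbon receptor), CAAAGTCCA (HNF4) and TATAAA. Kmo lies at chr13:90089271-90089570 on the plus strand, and capitals mark 2 matches to GAAANNGAA and, further on, CAAAGTCCA read on the other strand.
Kmo: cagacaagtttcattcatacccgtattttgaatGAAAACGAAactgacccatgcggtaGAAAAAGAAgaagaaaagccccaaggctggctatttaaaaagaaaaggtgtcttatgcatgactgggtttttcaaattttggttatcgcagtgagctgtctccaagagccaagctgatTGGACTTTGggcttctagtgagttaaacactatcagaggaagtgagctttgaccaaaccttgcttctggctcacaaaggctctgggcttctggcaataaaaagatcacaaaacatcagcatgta
Haao, the member with the highest level in the healthy kidneys, lies at chr6:16598075-16598374 on the plus strand, and its window holds none of the 4.
Haao: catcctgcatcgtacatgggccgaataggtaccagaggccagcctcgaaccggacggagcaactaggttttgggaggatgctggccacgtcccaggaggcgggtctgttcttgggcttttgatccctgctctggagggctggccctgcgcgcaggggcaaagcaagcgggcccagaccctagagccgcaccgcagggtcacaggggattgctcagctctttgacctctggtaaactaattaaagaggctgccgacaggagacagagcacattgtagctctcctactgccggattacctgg

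In the Kmo window the matches to GAAANNGAA begin 217 and 192 bases before the start, and the HNF4 letters 74 bases before it. Of 33469 rat promoter windows of this length, 9.71% hold the first motif and 0.391% the second. Nadsyn1 has 3 matches to GCGTG, which 29.7% of windows hold, and Tdo2 has TATAAA, held by 14.2%. Afmid, Kynu and Qprt, like Haao, have none of the 4. A match is a description of the letters and not a binding site.

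Levels are given as FPKM, mapped fragments scaled by library size and transcript length, a scale on which genes can be compared. Each table was tested on its own with limma on log2(FPKM + 0.1), and fold changes below are on that log2 scale, which understates the change of low genes. A gene passed the test at a Benjamini-Hochberg adjusted p under 0.05 over all tested entries, and a DEG also changed by 2 or more on the log2 scale in either direction. Rises were common: 39.6% of 15029 tested entries rose and 19.9% fell in the adenine model, and 56.1% of 15043 rose and 14.4% fell in the UUO model. Upregulated DEGs made up 10.7% and downregulated DEGs 5.03% in the adenine model, against 13.2% and 4.21% in the UUO model. Over all tested entries the median change on the log2 scale was 0.30 after adenine and 0.62 under UUO, and changes are to be read against it. With median-of-ratios scaling these medians were 0.01 and 0.03, with 4362 entries rising and 4264 falling in the adenine model and 4219 rising and 4201 falling in the UUO model. FPKM summed to 564972 to 630244 in control and sham rats and 468389 to 539011 in adenine and UUO rats, and the depth behind the values is unknown.

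The middle of the pathway fell in both models. All 6 enzymes from Afmid to Qprt fell in the adenine model and under UUO, to between 2.26% and 25.1% of the mean level of the reference group, while Nampt rose to 209% and 205%. Of the 8 members tested in the adenine model, 7 fell and 1 rose, and 6 of the 7 were downregulated DEGs. In the UUO model the same 8 genes gave 7 falls and 1 rise with 5 downregulated DEGs, and Ido1, tested there as well, rose. The median log2 fold change of the tested members was -2.59 in the adenine model (8 genes) and -2.61 under UUO (9 genes, with Ido1). No tested member had overlapping groups in either model, as was the case for 68% of tested entries in the adenine model and 75.7% under UUO.

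**Figure D1:**
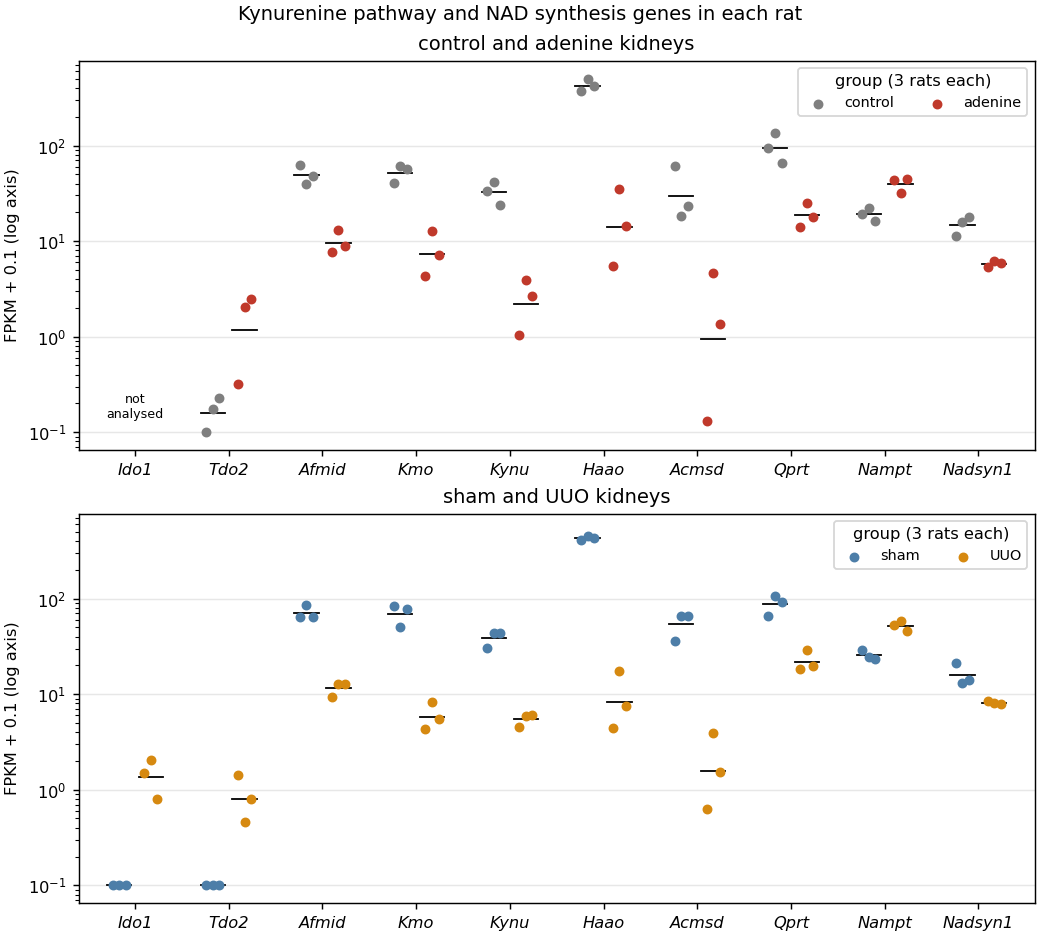
FPKM + 0.1 on a log axis for 9 genes in the 6 control and adenine rats and 10 genes, with Ido1, in the 6 sham and UUO rats (points), with the group mean on the log scale (lines), control and adenine above, sham and UUO below. The 6 genes from Afmid to Qprt lie lower in every adenine and UUO rat than in any control or sham rat, and Nampt lies higher.

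The genes that open the tryptophan ring had the lowest mean levels: Tdo2 in control and adenine rats, and Tdo2 and Ido1 in sham and UUO rats. Ido1, the form induced by interferon gamma, was listed at 0.0001, the lowest value of that table, in all 3 sham rats and at 1.39, 1.96 and 0.706 FPKM in UUO rats 1 to 3. It entered the test only through its values in the UUO group, so that its pass (a DEG by the fitted value) adds nothing to these values. Tdo2, the hepatic form, was at 0, 0.0751 and 0.129 FPKM in control rats and 0.221, 1.94 and 2.41 FPKM in adenine rats. In the sham rats it was listed at 0.0001 throughout, and the UUO rats had 1.33, 0.360 and 0.696 FPKM. Every adenine and UUO rat was thus above its reference group, but Tdo2 did not reach the minimum of 0.5 FPKM in 3 samples of a table and was not tested with the rest. Without that minimum, an alternative added after the data were seen, its fitted log2 fold change in the adenine model was 2.89 (SE 0.83, limma adjusted p = 0.032). Markers of hepatocytes, a cell rich in Tdo2, were near 0: 6 of them summed to 0.541 to 1.00 FPKM in control, 0.739 to 2.32 in adenine, 0.269 to 0.686 in sham and 1.20 to 1.65 in UUO rats. Albumin (Alb) was listed at 0.0001 in all sham rats and 2 of 3 UUO rats. Of the 6 markers only Apoa1 was tested, under UUO alone, and it rose by 1.61 on the log2 scale. Sham rats alone could not bring Apoa1 to 0.5 FPKM in 3 samples, so its pass leans on the UUO values and adds little to them. Apoa1 did not pass with median-of-ratios scaling (1.16, limma adjusted p = 0.074) or without the minimum FPKM (limma adjusted p = 0.064).

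Afmid, the formamidase that releases kynurenine, was at 62.7, 39.4 and 47.5 FPKM in control rats 1 to 3 and 7.61, 12.9 and 8.80 FPKM in adenine rats. It stood at 63.7, 85.6 and 63.4 FPKM in sham rats and 9.19, 12.7 and 12.6 FPKM in UUO rats. Both falls left a wide gap between the groups, with log2 fold changes of -2.35 (SE 0.24) in the adenine model and -2.61 (SE 0.18) under UUO. Kmo, the mitochondrial monooxygenase that makes 3-hydroxykynurenine, was at 40.5, 60.9 and 56.7 FPKM in control rats and 4.22, 12.7 and 7.03 FPKM in adenine rats. Sham rats had 83.3, 50.9 and 77.5 FPKM of Kmo and UUO rats 4.20, 8.27 and 5.37. Kmo therefore fell to 15.1% of the control mean and 8.43% of the sham mean, with log2 fold changes of -2.83 (SE 0.39) and -3.57 (SE 0.29).

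Kynu, the kynureninase that makes 3-hydroxyanthranilate, was at 33.6, 41.7 and 23.7 FPKM in control rats and 0.936, 3.82 and 2.53 FPKM in adenine rats. In the other table it was at 30.0, 43.5 and 43.4 FPKM in sham rats and 4.45, 5.85 and 5.89 FPKM in UUO rats. The adenine rats spread more widely than the UUO rats, and all lay below all reference rats, with log2 fold changes of -3.87 (SE 0.49) and -2.82 (SE 0.19). Haao, the dioxygenase that opens the ring of 3-hydroxyanthranilate, was the most abundant member in healthy kidneys, at 368, 500 and 417 FPKM in control rats and 409, 456 and 428 FPKM in sham rats. It was at 5.34, 35.2 and 14.4 FPKM in adenine rats and 4.33, 17.5 and 7.44 FPKM in UUO rats. Haao thus lost its place at the top, at 4.27% of the control mean and 2.26% of the sham mean. Its log2 fold changes were -4.92 (SE 0.62) in the adenine model and -5.68 (SE 0.45) under UUO. Without adenine rat 1 the value was -4.23, without adenine rat 2 it was -5.58, and with median-of-ratios scaling the UUO value was -6.28.

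At the branch point, Acmsd, which draws the intermediate away from NAD, was at 61.7, 18.1 and 22.9 FPKM in control rats and 0.0305, 4.58 and 1.24 FPKM in adenine rats. Sham rats had 35.9, 65.8 and 65.4 FPKM and UUO rats 0.524, 3.81 and 1.44 FPKM. Its spread was the widest of the tested members in both fits, and the groups did not overlap, with log2 fold changes of -4.98 (SE 1.25, limma adjusted p = 0.013) and -5.11 (SE 0.64). The adenine value was -3.56 without adenine rat 1 and -6.14 without adenine rat 2, and the UUO value -4.45 without UUO rat 1 and -5.78 without UUO rat 2. Qprt, which turns quinolinate into nicotinate mononucleotide, was at 94.3, 134 and 64.8 FPKM in control rats and 14.0, 25.2 and 17.8 FPKM in adenine rats. It was at 66.1, 108 and 93.1 FPKM in sham rats and 18.4, 28.8 and 19.8 FPKM in UUO rats. Its log2 fold changes were -2.33 (SE 0.31) and -1.99 (SE 0.23), so that Qprt was a DEG in the adenine model and lay just short of the fold threshold under UUO, where median-of-ratios scaling gave -2.59. Limma adjusted p-values of the 6 enzymes lay between 0.000327 and 0.0127 in the adenine model and between 4.04e-05 and 0.000447 under UUO.

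Nampt was the member that rose in both models. It was at 19.2, 22.0 and 16.1 FPKM in control rats and 43.4, 32.0 and 44.0 FPKM in adenine rats. Sham rats had 29.0, 24.3 and 23.2 FPKM and UUO rats 53.2, 58.0 and 46.0 FPKM. The lowest diseased rat was above the highest reference rat in each table, and the log2 fold changes were 1.05 (SE 0.17, limma adjusted p = 0.0023) and 1.04 (SE 0.13, limma adjusted p = 0.00041), under the fold threshold of a DEG. With median-of-ratios scaling they were 0.76 and 0.44, the latter at a limma adjusted p of 0.040. Nadsyn1, the amidating synthetase of the last step, was at 11.1, 15.6 and 17.9 FPKM in control rats and 5.29, 6.10 and 5.80 FPKM in adenine rats. It was at 21.1, 13.1 and 13.9 FPKM in sham rats and 8.45, 7.93 and 7.86 FPKM in UUO rats. This smaller fall passed the test in both models, with log2 fold changes of -1.34 (SE 0.19, limma adjusted p = 0.0012) and -0.95 (SE 0.19, limma adjusted p = 0.0036), the latter -1.54 with median-of-ratios scaling.

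**Figure D2:**
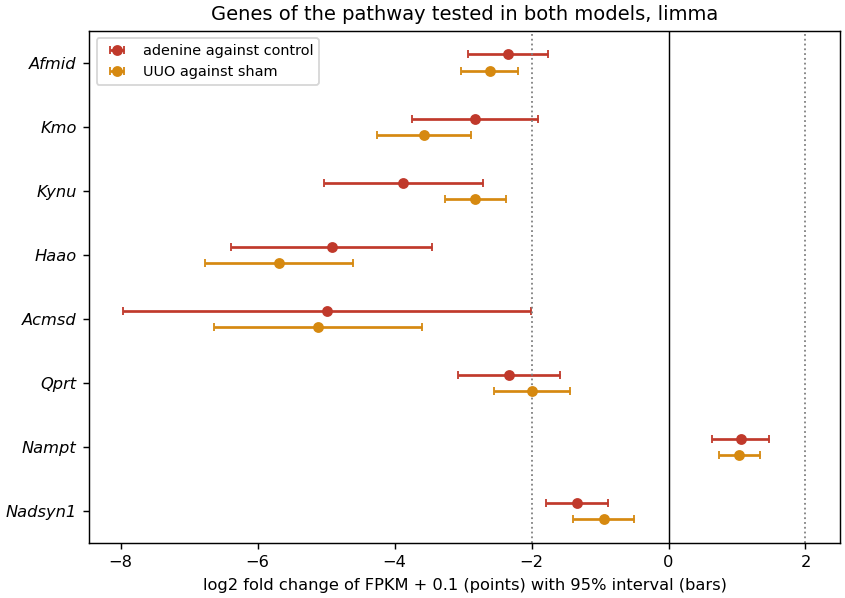
Log2 fold change (points) with 95% interval (bars) of the 8 genes tested in both models, adenine against control in red and UUO against sham in orange; dotted lines mark the DEG threshold of 2 in each direction. The values run from -5.68 (Haao, UUO) to 1.05 (Nampt, adenine), and the intervals of each gene in the 2 models overlap.

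The order of the members changed with disease. In control rats Haao led with a mean of 428 ± 66.6 FPKM (SD, n = 3), followed by Qprt at 97.7 ± 34.8. Kmo, Afmid, Acmsd and Kynu came next, each overlapping its neighbour in that order, and Nampt and Nadsyn1 followed with overlapping ranges. Sham rats had the same first and last places among these 8, with Haao at 431 ± 23.5 FPKM and Nadsyn1 at 16.0 ± 4.38. In both diseased groups Nampt was first, at 39.8 ± 6.80 FPKM in adenine rats and 52.4 ± 6.04 FPKM in UUO rats. It lay above every value of the other members in UUO rats, whereas in adenine rats its lowest value, 32.0 FPKM, was below the highest of Haao, 35.2 FPKM. Qprt was second in both, overlapping Haao in adenine rats and clear of the next gene, Afmid, in UUO rats.

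None of the 8 members tested in both models passed the test of a difference between the models, with 0 at an unadjusted p under 0.05 as well, while 27% of 13486 symbols passed it. The value nearest to a call was that of Kynu, whose log2 fold change was lower by 1.05 in the adenine model (difference -1.05, SE 0.52, adjusted p = 0.15 from the limma fits). Without adenine rat 2 the Kynu difference was -1.47 and passed (limma fits, adjusted p = 0.042). Kmo lay the other way, with a difference of 0.74 (SE 0.48, adjusted p = 0.27 from the limma fits). The difference for Nampt was 0.02 (SE 0.22) and that for Acmsd 0.13 (SE 1.40), so the data leave a wide range for Acmsd.

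Ratios of 2 genes were also taken within each kidney, on the log2 scale with 0.1 added to each FPKM, which pulls the log2 ratio toward 0 where a gene is near 0. Nampt relative to Qprt, salvage against de novo entry, is given first as a plain ratio of FPKM, without log2 and with nothing added. This plain ratio was 0.164 to 0.248 in control rats and 1.27 to 3.10 in adenine rats. It was 0.226 to 0.439 in sham rats and 2.01 to 2.90 in UUO rats. Nampt RNA was thus below Qprt RNA in every control and sham kidney and above it in every diseased kidney. The log2 changes were 3.39 and 3.03 (two-sided exact permutation p = 0.1 in each model, the smallest that 3 against 3 allows). Flux through the 2 routes was not measured. Qprt relative to Acmsd, NAD synthesis against diversion, had log2 values of 0.61, 2.88 and 1.49 in control rats and 6.76, 2.44 and 3.74 in adenine rats. These groups overlapped, and the log2 change of 2.65 had an exact permutation p of 0.2. Leaving out adenine rat 1 gave 1.42, and pseudocounts of 1 and 0.01 gave 1.43 and 3.24. In the UUO model the log2 ratio went from 0.88, 0.71 and 0.51 to 4.89, 2.89 and 3.69 without overlap, a change of 3.12 (exact permutation p = 0.1).

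Kynu relative to Kmo, consecutive steps, had changes of opposite sign in the models. Its log2 values were -0.27, -0.55 and -1.25 in control rats and -2.06, -1.70 and -1.44 in adenine rats, a change of -1.05 (exact permutation p = 0.1). Sham rats had -1.47, -0.23 and -0.84 and UUO rats 0.08, -0.49 and 0.13, an overlapping change of 0.75 (exact permutation p = 0.2). The change in the adenine model minus that in the UUO model was -1.80, with an exact permutation p of 0.015 over 400 arrangements in which the labels of both models were permuted, 0.045 after adjustment over 3 ratios. Adjusted in the same way, it did not pass when any of 9 of the 12 rats was left out (adjusted exact permutation p from 0.015 to 0.105 over all 12) or with a pseudocount of 1 (change -1.44, adjusted exact permutation p = 0.075). This test was added after the data were seen. Its arrangements stand for no change in either model, not for equal changes in both, so its p is not that of a difference alone. The other differences between the models, -0.47 for Qprt to Acmsd and 0.36 for Nampt to Qprt, had exact permutation p-values of 0.83 and 0.80. These ratios rose in both models, which widens the arrangements, so the p-values say little about a difference.

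**Figure D3:**
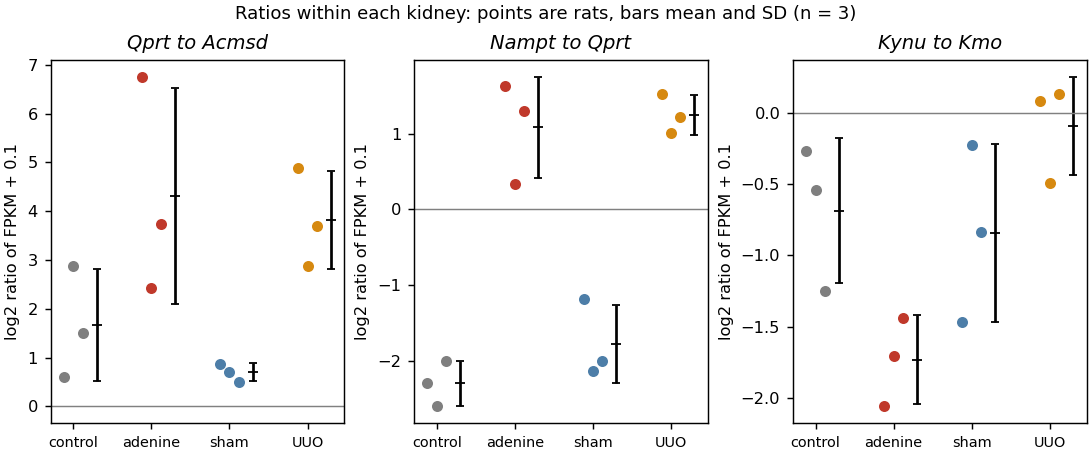
Log2 ratio of 2 genes in each kidney (points, 3 rats per group) with mean and SD (bars) for Qprt to Acmsd, Nampt to Qprt and Kynu to Kmo. Nampt to Qprt is below 0 in all control and sham rats and above 0 in all adenine and UUO rats, and Kynu to Kmo goes down by 1.05 in the adenine model and up by 0.75 under UUO.

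The diseased rats differed among themselves, and the 6 enzymes from Afmid to Qprt followed nearly the same order. Rat 1 had the lowest value for 6 of 6 in both models, and rat 2 the highest for 6 of 6 in the adenine model and 5 of 6 under UUO. Their summed FPKM was 632 to 794 in control rats and 32.2, 94.4 and 51.8 in adenine rats 1 to 3, or 4.62%, 13.6% and 7.45% of the control mean. It was 688 to 809 in sham rats and 41.1, 77.0 and 52.5 in UUO rats, or 5.43%, 10.2% and 6.94% of the sham mean. A list of 12 proximal tubule markers ranked the rats alike. Their summed level was 2389 to 4098 FPKM in control rats and 7.57%, 26.6% and 13.7% of the control mean in adenine rats, and 3264 to 4377 FPKM in sham rats and 11.1%, 22.1% and 15.0% of the sham mean in UUO rats. Of the 12 markers, 6 fell and 1 rose in the adenine model (median log2 fold change -1.75) and 8 fell under UUO (median -2.06). Of all tested entries 19.9% fell and 39.6% rose in the adenine model, and 14.4% fell under UUO. None of the 12 markers was at the lowest value of its table throughout. In whole kidney, fewer tubule cells and less RNA per tubule cell cannot be told apart, and the part of the tubule markers' fall in that of the 6 enzymes was not tested.

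**Figure D4:**
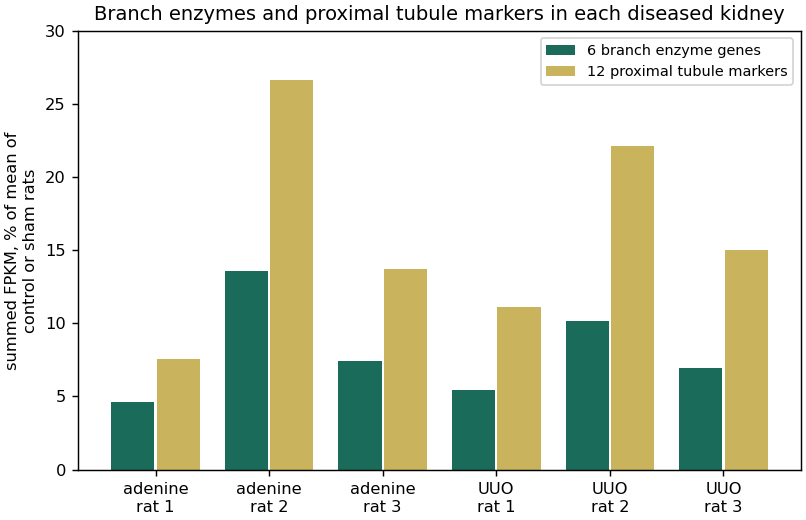
Summed FPKM of the 6 enzyme genes from Afmid to Qprt (green) and of 12 proximal tubule markers (yellow) in each diseased rat, as percent of the mean of the control or sham rats. Both sums are lowest in rat 1 and highest in rat 2 of each model, from 4.62% to 13.6% for the enzymes and 7.57% to 26.6% for the markers.

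Regulators of these enzymes in the tubule were measured too. Hnf4a, a nuclear receptor that maintains proximal tubule and liver genes, was at 143, 116 and 110 FPKM in control rats and 9.93, 40.5 and 28.8 FPKM in adenine rats, again lowest in rat 1 and highest in rat 2. In sham rats it was at 156, 183 and 157 FPKM and in UUO rats at 31.6, 59.5 and 43.4 FPKM, and its log2 fold changes were -2.42 (SE 0.48) and -1.93 (SE 0.22). Ppargc1a, the coactivator of mitochondrial genes known to raise de novo NAD synthesis in kidney, fell by 1.38 on the log2 scale in the UUO model (SE 0.23, limma adjusted p = 0.0018). Its value of -0.23 (SE 0.28, limma adjusted p = 0.50) in the adenine model did not pass, and with quantile normalization it was -0.73 and passed (limma adjusted p = 0.039). The difference between the models was 1.15 (adjusted p = 0.033 from the limma fits), and it did not pass when any of 8 of the 12 rats was left out (adjusted p = 0.060 to 0.074 from the limma fits).

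Of the 4 tested enzymes of the side branches of kynurenine, 3 fell with the main route and Got2 did not. Aadat, an aminotransferase that makes kynurenic acid, was at 1366, 1849 and 1232 FPKM in control rats, above Haao, and at 13.6, 29.6 and 25.8 FPKM in adenine rats. Sham rats had 1524, 1653 and 1710 FPKM of Aadat and UUO rats 55.9, 50.6 and 72.9 FPKM. The log2 fold changes were -6.06 (SE 0.31) in the adenine model, where no tested member had a larger fall, and -4.78 (SE 0.15) under UUO, where Haao and Acmsd had larger ones. They differed between the models by -1.28 (adjusted p = 0.016 from the limma fits), and by -0.97 with median-of-ratios scaling (adjusted p = 0.059). Kyat1 and Kyat3, 2 further aminotransferases of kynurenine, fell by 2.27 and 1.66 on the log2 scale in the adenine model and by 2.07 and 1.19 under UUO. Got2, the mitochondrial aspartate aminotransferase that can also act on kynurenine, was named after its values were seen. It was at 124, 89.5 and 108 FPKM in control rats and 128, 162 and 121 FPKM in adenine rats, and at 169, 209 and 179 FPKM in sham rats and 153, 166 and 156 FPKM in UUO rats. Its groups overlapped in the adenine model and not under UUO, and its log2 fold changes of 0.36 (SE 0.17, limma adjusted p = 0.11) and -0.22 (SE 0.10, limma adjusted p = 0.086) did not pass. They passed with equal sums (0.63, limma adjusted p = 0.015) and quantile normalization (0.53, limma adjusted p = 0.034) in the adenine model and with median-of-ratios scaling (-0.82, limma adjusted p = 0.0012) in the UUO model. The difference between the models was 0.58 (adjusted p = 0.042 from the limma fits), and it did not pass when any of 7 of the 12 rats was left out (adjusted p = 0.064 to 0.10 from the limma fits). Ido2, the relative of Ido1, was at 0.0621 FPKM or listed at 0 in the control and adenine groups, was listed at 0.0001 in all sham rats, and was at 0.541, 0.411 and 0.261 FPKM in UUO rats. Of 5 other kynurenine enzymes 4 were tested, and 3 fell in each model with none rising. Of all tested entries 19.9% fell in the adenine model and 14.4% under UUO.

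RNA of Naprt and Nmrk1, whose enzymes start other routes to NAD, also fell in both models. Naprt, which starts from nicotinic acid, was at 120, 116 and 107 FPKM in control rats and 21.2, 31.0 and 20.3 FPKM in adenine rats, with log2 fold changes of -2.26 (SE 0.17) in that model and -1.90 (SE 0.12) in the UUO model. Nmrk1, which starts from nicotinamide riboside, fell by 2.37 and 2.23 on the log2 scale. The Nmnat enzymes, on which all routes converge, had smaller values. Nmnat1, the nuclear form, had log2 fold changes of -0.29 and -0.26 that did not pass (limma adjusted p = 0.11 in each), though with median-of-ratios scaling they were -0.58 and -0.86 and passed. Nmnat3, the mitochondrial form, rose by 0.83 (SE 0.20) in the adenine model, a value that was 0.38 and did not pass with quantile normalization (limma adjusted p = 0.11). Under UUO Nmnat3 had a value of 0.23 (SE 0.16) that did not pass. This was -0.36 after median-of-ratios scaling, and it passed at 0.45 with equal sums (limma adjusted p = 0.036) and at 0.38 without UUO rat 3 (limma adjusted p = 0.044). Nmnat2, the form of neurons, was at 0.0001 to 0.184 FPKM in the sham and UUO groups, and Nmrk2 was listed at 0.0001 in all 6 of those rats. Of 8 genes in this list 6 were tested, with 2 rising and 3 falling in the adenine model and 0 rising and 2 falling in the UUO model. Beside these counts, 39.6% of all tested entries rose and 19.9% fell in the adenine model, and 56.1% rose and 14.4% fell under UUO.

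**Figure D5:**
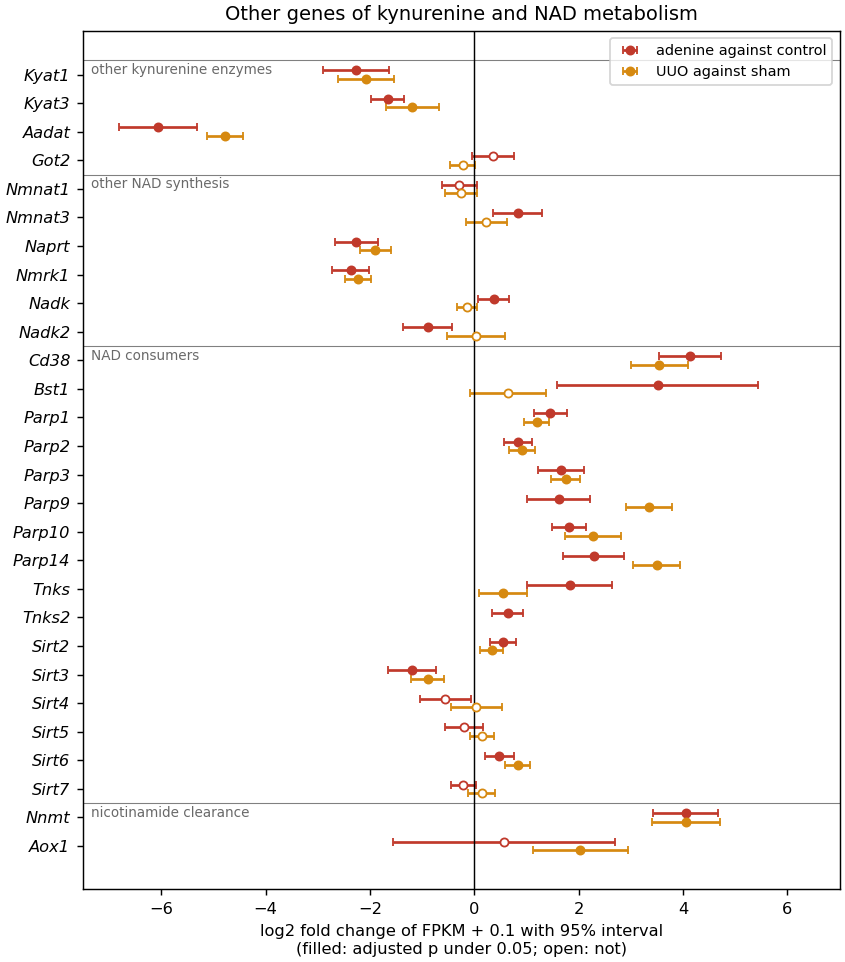
Log2 fold change (points) with 95% interval (bars) of other genes of kynurenine and NAD metabolism, adenine against control in red and UUO against sham in orange, filled where the limma adjusted p was under 0.05. Aadat lies farthest to the left at -6.06 and -4.78, and Cd38 and Nnmt are among those farthest to the right, between 3.54 and 4.13.

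Among genes that use up NAD or nicotinamide, rises outnumbered falls, as they did among all tested entries. Cd38, the main NAD glycohydrolase and a surface protein of immune cells, was at 0.815, 0.406 and 0.502 FPKM in control rats and 10.5, 12.1 and 11.4 FPKM in adenine rats. In the other table Cd38 was at 0.677, 0.736 and 1.18 FPKM in sham rats and 11.9, 9.65 and 11.2 FPKM in UUO rats. Its groups lay far apart in both, with log2 fold changes of 4.13 (SE 0.25) and 3.54 (SE 0.23). Nnmt, which methylates nicotinamide and so removes it from salvage by Nampt, had log2 fold changes of 4.05 (SE 0.26) and 4.06 (SE 0.27). Parp1, the polymerase that spends NAD at damaged DNA, rose by 1.45 and 1.20 on the log2 scale, and the mitochondrial deacylase Sirt3 fell by 1.19 and 0.89. Of 19 NAD consumers listed, 16 were tested in the adenine model with 12 rising and 1 falling, and 15 in the UUO model with 10 rising and 1 falling, beside rises of 39.6% and 56.1% of all tested entries. The median log2 fold change of this list was 1.15 and 0.83, beside 0.30 and 0.62 for all tested entries.

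Signals that act on Ido1 or answer to kynurenine were read from the same tables. Interferon gamma (Ifng), the inducer of Ido1, was listed at 0 in all control and adenine rats but 1 control rat at 0.0669 FPKM, and reached 0.0918 and 0.432 FPKM in UUO rats 1 and 3. Ido1 was highest in UUO rat 2 (1.96 FPKM) and lowest in UUO rat 3 (0.706 FPKM). Irf1, a transcription factor downstream of interferon gamma, was at 8.09, 7.31 and 8.10 FPKM in control rats and 36.7, 38.6 and 42.6 FPKM in adenine rats. Sham rats had 11.9, 9.37 and 7.86 FPKM of Irf1 and UUO rats 93.7, 108 and 92.0 FPKM, so that the rise was 2.31 (SE 0.11) and 3.34 (SE 0.16) on the log2 scale. The rise was larger in the UUO model by a tested difference of -1.03 (adjusted p = 0.0024 from the limma fits).

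Kynurenine is a ligand of the aryl hydrocarbon receptor, and the classical targets of that receptor did not move as one. Cyp1b1 rose by 3.97 (SE 0.44) and 4.93 (SE 0.24) on the log2 scale. Cyp1a1 was at 1.67, 3.45 and 1.11 FPKM in control rats and at 0.0845, 0 and 0 FPKM in adenine rats, a fitted log2 fold change of -4.0 (SE 0.49) that depends on the added 0.1. It entered that test only through its values in the control group, so that its pass there adds nothing to these values. In the UUO model Cyp1a1 went from 1.20, 2.05 and 2.72 FPKM to 5.40, 1.13 and 3.88 FPKM with overlapping groups, a value of 0.59 (SE 0.59) that did not pass. It was -0.25 with quantile normalization, and without UUO rat 2 it was 1.23 and passed (limma adjusted p = 0.029). The receptor itself, Ahr, had a value of 0.43 (SE 0.22, limma adjusted p = 0.14) in the adenine model. That value was -0.03 with quantile normalization, and it passed at 0.70 with equal sums (limma adjusted p = 0.032) and at 0.61 without control rat 2 (limma adjusted p = 0.049). Under UUO Ahr rose by 1.25 (SE 0.27), and the value did not pass at 0.66 with median-of-ratios scaling (limma adjusted p = 0.055) or at 0.48 with quantile normalization (limma adjusted p = 0.12). Of 7 genes in this list, 2 rose and 1 fell of the 5 tested in the adenine model, where 39.6% of all tested entries rose and 19.9% fell. Under UUO 5 of 6 tested rose, beside 56.1% of all tested entries.

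Immune cells also carry Ido1, Kmo, Kynu, Nampt and Cd38, and their markers rose. All 10 macrophage and dendritic cell markers were upregulated DEGs in both models, and their summed level went from 180 to 368 FPKM in control rats to 1679 to 2339 in adenine rats, and from 285 to 425 FPKM in sham rats to 1883 to 2629 in UUO rats. All 6 T cell markers rose as well, as did every tested marker of fibroblasts and mural cells, 5 in the adenine model and 6 under UUO. Of 6 markers of the loop and distal nephron, 3 and 6 fell, while 1 of 4 tested endothelial markers rose and 2 fell in the adenine model and 2 of 4 rose under UUO. Of 4 podocyte markers 1 fell in the adenine model, and 1 rose and 1 fell under UUO. Beside these marker counts, 39.6% of all tested entries rose and 19.9% fell in the adenine model, and 56.1% rose and 14.4% fell under UUO. The part of these cells in the rises of Nampt and Cd38 and in the values of Ido1 was not tested.

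Genes with a pattern most like that of a member were sought among 13486 symbols, by the lower of the Pearson correlations of log2(FPKM + 0.1) in the 2 tables, over 6 samples each. For Kmo these were Slc27a2 (0.997), Serpinf2 (0.994) and Agmat (0.994). For Qprt they were Hyi (0.994), Cndp2 (0.991) and Rnf181 (0.989), and for Nampt Ccrl2 (0.988), Tlr7 (0.985) and Rasa4 (0.983). The samples of a table form 2 groups far apart, so the values are high for many genes that separate them and are given as a description.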

How the data were processed

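RNA was measured in kidneys of 12 rats, 3 in each of 4 groups, which were taken from the sample labels. The authors deposited FPKM values per gene in 2 tables, whose lowest values are 0 (control and adenine) and 0.0001 (sham and UUO). The submitters' processing notes name cutadapt 1.9, HISAT2 2.0.4, StringTie 1.3.4d, edgeR and DESeq2, and the genome build and annotation are not given in the sources used here. FPKM carries no counts, so depth is unknown and precision rests on the spread between 3 rats.

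Each table was fitted alone with limma 3.58.1 (eBayes with trend, R 4.3.3) on log2(FPKM + 0.1), for entries of at least 0.5 FPKM in at least 3 of 6 samples, with Benjamini-Hochberg adjustment over all tested entries. Effects of the models were compared by the difference of log2 fold changes over the root of the summed squared standard errors, for symbols listed once and tested in both tables. Other steps used Python 3.11.15, numpy 2.4.6, pandas 2.3.3 and scipy 1.17.1. Ratios were tested by exact permutation, two-sided. The fits were tested on simulated data. Promoter sequences are from RefSeq, build GRCr8.

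The 10 genes and the other lists were chosen with earlier results of these data known. Named genes are all 10, the steps that complete the pathway and, in each list, genes with the largest rise or fall past the test, of which those of marker lists are given as counts. Some items of these lists and of the motifs searched are not reported here. For Kmo, Qprt and Nampt the 3 most alike genes were named. As alternatives, pseudocounts of 1 and 0.01, a filter at 1 FPKM or none, median-of-ratios, quantile and equal-sum scaling, eBayes without trend, a replicate block and leaving out each sample were tried.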

Additional observations from a re-analysis of the deposited data

Results flagged for a closer look

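The results below are the ratio and the named genes outside the marker lists whose effects differed between the adenine and UUO models by a test of the difference. Other genes of the wider lists passed that test as well, as did 27% of 13486 symbols. The models also differ in duration and in the table that holds them, so these cannot be told apart.

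The log2 ratio of Kynu to Kmo changed by -1.80 more in the adenine than in the UUO model, with all 3 adenine rats below the control range and 2 of 3 UUO rats above the sham range. Its exact permutation p was 0.045 after adjustment over 3 ratios, set against no change in either model rather than equal changes in both. On that adjustment it did not pass when any of 9 of the 12 rats was left out or with a pseudocount of 1. Aadat fell further in the adenine model (difference of log2 fold changes -1.28). Cyp1a1 fell in the adenine model and did not pass the test in the UUO model, except without UUO rat 2 (difference -4.60). Irf1 rose less in the adenine model (difference -1.03). Ppargc1a fell in the UUO model and did not pass in the adenine model (difference 1.15), a difference that depended on single rats as given above. So did that of Got2, which passed in neither model (difference 0.58).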

How the results depend on the processing

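All 251 fits of a tested member within a model under an alternative kept their direction and their side of the adjusted p threshold. Those of Ido1 among them add nothing, because it entered the test only through its UUO values. No alternative changed the pass of any of the 8 genes tested in both. DEG calls did change: 6 members were DEGs in the UUO model, 5 with a pseudocount of 1 and 7 with median-of-ratios or quantile scaling. Without the minimum FPKM, where Tdo2 was tested as well, 7 were DEGs in each model, against 6 in the adenine model with it. Ido1 could not be tested when a UUO rat was left out or with a minimum of 1 FPKM, so 8 rather than 9 members passed there. The number of members that differed between the models was 0 throughout except without adenine rat 2, where it was 1 (range 0 to 1 over left-out rats), namely Kynu.

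Counts over all entries moved more. With a pseudocount of 1 the adenine model had 840 upregulated and 480 downregulated DEGs, and leaving out 1 rat gave 1029 (without adenine rat 3) to 1669 upregulated DEGs. In the UUO model 4219 and 4408 entries rose and 4201 and 4144 fell with median-of-ratios and quantile scaling, upregulated DEGs numbered 1249 and 1047 and downregulated DEGs 954 and 1009, and a pseudocount of 1 gave 1038 upregulated DEGs. Both scalings set the median change near 0 by construction.

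Some values near 0 changed sign. In the adenine model these were Ahr (-0.035) and Slc7a5 (-0.091) with quantile normalization, Ppargc1a with equal sums (0.030) and over left-out rats (range -0.39 to 0.021), and Slc6a19 with a pseudocount of 1 (-0.0012), median-of-ratios (-0.27), quantile normalization (-0.46) and over left-out rats (-0.66 to 0.75). In the UUO model they were Nmnat3 (-0.36 and -0.49) and Slc7a5 (-0.40 and -0.56) with median-of-ratios and quantile scaling, Cyp1a1 (-0.25, quantile), Got2 (0.0014, equal sums), the endothelial marker Emcn (-0.33, median-of-ratios), the tubule marker Slc5a12 with equal sums (0.18) and over left-out rats (-1.24 to 0.57), and the amino acid carrier Slc7a8 over left-out rats (-0.10 to 1.14). The Acmsd difference between models was -0.36 with a pseudocount of 0.01 and -1.03 to 1.55 over left-out rats, the Nampt difference -0.10 to 0.17, and that of the Qprt to Acmsd ratio 0.012 with a pseudocount of 0.01 and -1.70 to 0.46. The cause was not tested.

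Replicate numbers do not pair the rats, which are different animals. Deviations of same-numbered rats correlated at -0.08, -0.12 and -0.05 after adenine and 0.05, 0.11 and 0.06 after UUO. With a replicate block 8 and 9 members passed, as without it, and 5286 entries rose and 2629 fell after adenine, 8423 and 2155 after UUO.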

Other observations

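Tryptophan also leaves by routes other than kynurenine, and these moved unequally. Inmt, which methylates tryptamine, fell by 2.96 and 2.64 on the log2 scale in the adenine and UUO models. Wars, which loads tryptophan on its transfer RNA, rose by 1.46 (SE 0.12) and 1.15 (SE 0.09). Il4i1, an amino acid oxidase of immune cells that also acts on tryptophan, rose by 1.70 (SE 0.23) in the adenine model and by 0.87 (SE 0.26) under UUO, 0.29 with median-of-ratios scaling (limma adjusted p = 0.39). The UUO value did not pass either without sham rat 1, sham rat 2 or UUO rat 1 (limma adjusted p = 0.054 to 0.061). Ddc, which decarboxylates aromatic amino acids, fell by 3.48 (SE 0.46) in the UUO model, and had a value of -1.76 (SE 0.82, limma adjusted p = 0.11) in the adenine model. The adenine value passed at -2.41 with quantile normalization (limma adjusted p = 0.042), at -2.41 without control rat 2 and at -2.43 without adenine rat 2. Of 7 genes in this list 6 were tested, with 3 rising and 1 falling in the adenine model and 2 rising and 2 falling in the UUO model. Beside these counts, 39.6% of all tested entries rose and 19.9% fell in the adenine model, and 56.1% rose and 14.4% fell under UUO.

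Among 6 genes of tryptophan transport, 2 rose and 1 fell in the adenine model and 3 fell under UUO. Of all tested entries 39.6% rose and 19.9% fell in the adenine model, and 14.4% fell under UUO. Cltrn, a partner that brings the tubular neutral amino acid carrier to the membrane, was at 715, 403 and 508 FPKM in control rats and 24.7, 168 and 64.9 FPKM in adenine rats. It fell by 3.03 (SE 0.65) and 1.97 (SE 0.23) on the log2 scale. Slc6a19, that carrier, fell by 1.5 (SE 0.42) in the UUO model, a value that did not pass without the minimum FPKM (limma adjusted p = 0.091). It was at 0.01 (SE 0.87) in the adenine model, where control rats ranged from 1.19 to 8.96 FPKM. Slc7a5, a carrier of large neutral amino acids into many cells, had values of 0.40 (SE 0.29) and 0.19 (SE 0.18) that did not pass and changed sign with quantile normalization, where the UUO value of -0.56 passed (limma adjusted p = 0.0497).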
